A study of Mus musculus with 4 samples.

Results

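The RAB GTPases are the largest branch of the RAS superfamily of small GTP-binding proteins, and each one marks a particular membrane of the cell. Members were taken by symbol, as protein-coding genes named Rab followed by digits and at most 1 letter in the GENCODE M21 annotation. This gave 59 genes of the 25261 identifiers in the deposited files, and 58 of them passed the filter on low values. RNA was sequenced from adult neural stem cells of C57BL/6 mice aged 8 weeks. All cells had been infected with a lentivirus. In the 2 ctrl libraries it carried a scramble hairpin, and in the 2 shOGT libraries a hairpin directed at mouse Ogt. Ogt encodes O-GlcNAc transferase, which adds single sugars to nuclear and cytoplasmic proteins, and the comparison asks how RAB transcripts differed when it was knocked down. Values are the deposited signal per gene, in which 1 unit is probably close to 1 read.

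A RAB protein switches between a GDP-bound form in the cytosol and a GTP-bound form on a membrane. Exchange factors load GTP, GTPase-activating proteins end the active state, and the active RAB recruits effectors such as tethers, motor adaptors and sorting proteins. A GDP dissociation inhibitor then lifts the RAB from the membrane for another round. In neural cells these steps serve the secretion of vesicles, the recycling of receptors, the growth of processes and the primary cilium. RAB activity is set mostly at the protein, which transcript levels do not measure.

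The hairpin's target was lower in both shOGT libraries. Ogt measured 4112 and 4137 in ctrl against 3379 and 3516 in shOGT. The log2 difference was -0.26 ± 0.04 (SE, limma adjusted p = 0.00876), so that most of the transcript remained. If 1 step of the signal is 1 read, which the values fit but no source used here states, 15697508 to 17753976 reads were assigned to genes per library. All 10 neural stem cell markers were detected, with Nes, the gene of nestin, between 13187 and 15395. Summed over their lists, 6 neuronal markers reached 307 to 366 in ctrl and 331 to 424 in shOGT, and 6 oligodendrocyte lineage markers 707 to 761 in ctrl and 419 to 459 in shOGT. Of the latter Pdgfra and Gpr17 fell, and the part of such cells in the RAB values was not tested. Markers of ependyma summed to 586 to 637 in ctrl and 710 to 753 in shOGT. Nearly all of that sum was Foxj1, at 558 and 620 in ctrl against 731 and 677 in shOGT. Foxj1 was not called (limma adjusted p = 0.0953). Ccdc153, the other ependyma marker in the sum, overlapped between the groups and was not called either. Microglia, endothelium, and mural cells with fibroblasts summed to 44.6 or less in every library. Of their lists Cx3cr1, Itgam, Cdh5, Cldn5 and Lum had no entry under these symbols in the deposited files. The same held for Tmem212 of the ependyma list.

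The part of the gene that anchors a RAB to its membrane shows what the members share beyond their names. A geranylgeranyl lipid is attached to cysteines at the very end of the protein. In the annotated coding sequence of every one of the 59 members at least 1 cysteine codon, TGC or TGT, lay among the last 5 codons before the stop. The same was found in 12.6% of 21762 protein-coding genes. There were 2 such codons in 50 members and 1 in 9, against at least 2 in 1.93% of all genes. The last 30 bases of the coding strand, stop codon included, are shown for the members on which the results turn and for their closest relatives, with the cysteine codons in capitals (GENCODE M21, GRCm38).
Rab3a: gcgccacctcatcaggatTGTgccTGCtga
Rab3b: cctctgctgcagcagaacTGCtctTGTtag
Rab3c: cctccaccacagcccaacTGTggcTGCtaa
Rab6a: ccagtcaatgaaggcggcTGTtccTGCtaa
Rab6b: ccggccagcgagggcggcTGCtccTGTtaa
Rab26: ggccgaggggtctccTGCTGTcgactctga
Rab8a: accagcttcttccggTGCagtctcctgtga
Rab8b: accagtttcttccgcTGTtctctgctttga
The Rab3 and Rab6 ends carry 2 cysteine codons around 1 other codon, the end of Rab26 carries the pair side by side 2 codons before its stop codon, and those of Rab8a and Rab8b carry 1. Paralogs with like ends still differ in many bases. No 50-base stretch was shared between members with the same number, such as Rab6a and Rab6b, so that a read of that length from one would not match the other. The read length is not given in the sources used here.

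Across the family most transcripts differed little between the groups. Of 58 RAB genes tested, 1 rose, Rab3c, and 1 fell, Rab6a, while 56 did not pass the test. That is 3.45% of the members, where 4.86% of all 21829 genes tested were called, 1.96% as higher and 2.9% as lower. Limma was run on log2(value + 1), and a gene was called at a Benjamini-Hochberg adjusted p under 0.05 over all genes. With the libraries rescaled to equal totals Rab6a was not called (limma adjusted p = 0.0517), and the calls over all genes moved from 427 higher and 633 lower to 593 and 585. Among genes with a mean signal of at least 100, 1 of 39 RAB genes was called (2.56%), against 9.21% of 11080 genes. The median log2 fold change of the family was -0.003 beside 0.001 for all genes; it was -0.05 without shOGT 2 and 0.02 without shOGT 1. In absolute size the median change of these 39 members was 0.07, where all genes of that level had 0.10.

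The groups did not overlap in 30 of 58 members, with shOGT above ctrl in 15 and below it in 15. This is 51.7%, close to the 49.3% of all tested genes (25.0% above, 24.3% below). For 14 members the unadjusted limma p was under 0.05, 7 in each direction, which is 24.1% beside 19.3% of all genes. For 23 of the 58 the 95% interval of the log2 fold change lay wholly within 0.25 on either side of 0. The precision followed the level of the gene. The median standard error was 0.05 for the 24 members with a mean of at least 1000, 0.10 for the 15 between 100 and 1000, 0.24 for the 13 between 10 and 100 and 0.63 for the 6 tested members below 10. In bulk RNA, fewer cells that express a gene and less RNA per cell cannot be told apart.

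**Figure D1:**
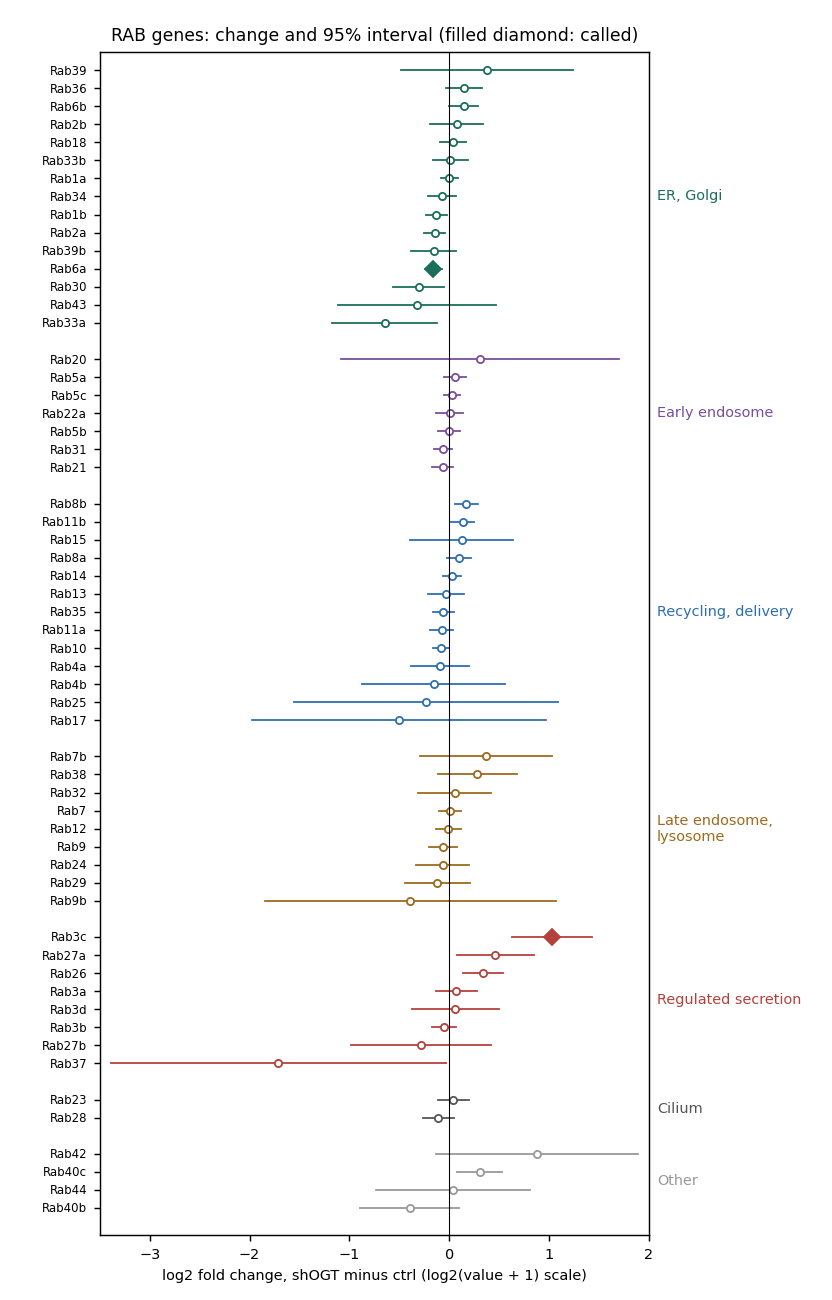
Log2 fold change of each of 58 tested RAB genes (x axis, shOGT minus ctrl, on the log2(value + 1) scale) with its 95% interval from limma, grouped by compartment on the y axis; filled diamonds are genes called at an adjusted p under 0.05. Rab3c at 1.03 and Rab6a at -0.16 are the diamonds, and most other intervals include 0.

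Levels were compared between genes per kilobase of exon, since long transcripts give more reads. This scale divides by the merged exons of all annotated forms, so genes with many or long forms can come out low. On that scale Rab31, which serves transport between the trans-Golgi network and endosomes, was the highest at a mean of 3547. Rab5c, a regulator of early endosome fusion, followed at 2355, then Rab7 of late endosomes at 1947, Rab10 of vesicle delivery to the plasma membrane at 1750.5, and Rab6a of the Golgi at 1439. Early endosome members made up 31.4% and 31.5% of the family's signal per kilobase in ctrl against 32.1% and 31.1% in shOGT, so that the groups overlapped. Endoplasmic reticulum and Golgi members made up 28.5% and 28.0% in ctrl against 26.8% and 27.2% in shOGT, a lower share in both shOGT libraries. Members of regulated secretion made up 5.31% and 5.25% in ctrl against 6.31% and 5.69% in shOGT, a higher share in both. Summed per kilobase, they reached 1247 and 1250 in ctrl against 1455 and 1328 in shOGT. Within that sum Rab26, which was not called, had means of 525 in ctrl and 667 in shOGT. Rab3b had 497 and 478, and Rab3c only 4.54 and 9.31. These shares are given without a test. With 2 libraries in each group an exact permutation test cannot give a 2-sided p under 0.333.

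**Figure D2:**
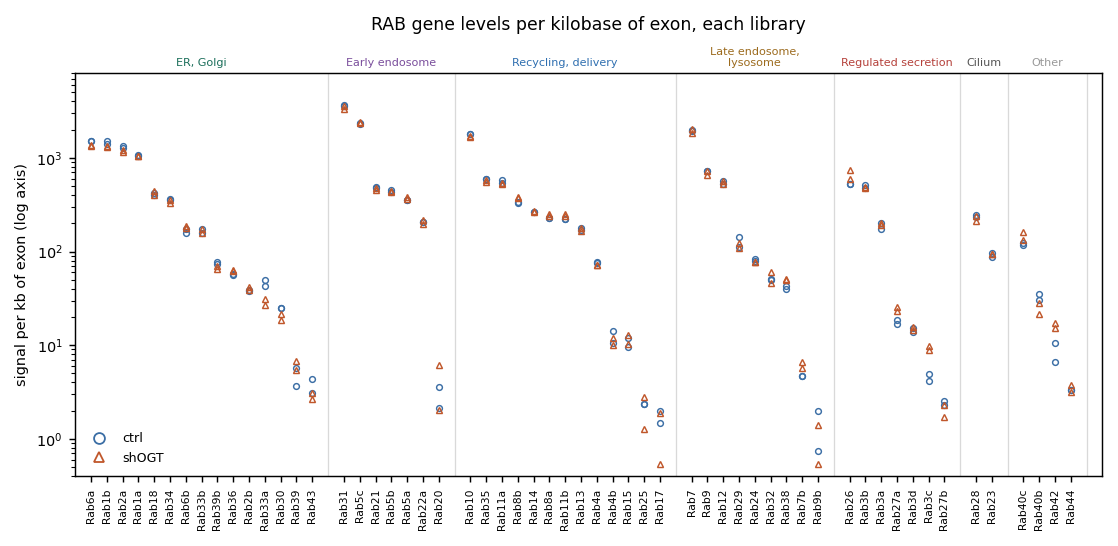
Signal per kilobase of exon (y axis, log scale) of the RAB genes with a value above 0 in every library, by compartment (x axis), with circles for the 2 ctrl libraries and triangles for the 2 shOGT libraries. Rab31 is the highest at a mean of 3547; the groups stand visibly apart for Rab3c, which is near the bottom of its compartment.

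The larger of the called differences was in regulated secretion. Rab3c, one of 4 Rab3 paralogs that control the docking and release of secretory and synaptic vesicles, measured 49.9 and 59.5 in ctrl against 107 and 117 in shOGT. Both shOGT libraries were far above both ctrl libraries. The mean rose by 105%, with ctrl at 54.7 ± 6.83 and shOGT at 112 ± 6.72 (SD, n = 2 per group). On the log2 scale this was 1.03 ± 0.18 (SE, 95% interval 0.63 to 1.43, limma adjusted p = 0.0138). Rab3c (ENSMUSG00000021700) lies on the minus strand of chromosome 13 at 110054187 to 110280996 on GRCm38. Without ctrl 1, ctrl 2, shOGT 1 or shOGT 2 its log2 fold change was 0.90, 1.15, 1.09 and 0.97, with a limma adjusted p of 0.0035, 7.9e-05, 0.287 and 0.289; without either shOGT library no gene in the whole table was called. Nor was any gene called without the filter on low values, with quantile normalization or without limma's variance trend, where the limma adjusted p of Rab3c was 0.123, 0.111 and 0.26. Rab3c is known from neurons. Limma called 0 of 6 neuronal markers, with 1, Dcx, at an unadjusted p under 0.05, and their sum overlapped between the groups. Snap25, a synaptic membrane protein, measured 114 and 96.2 in ctrl against 119 and 135 in shOGT, and Dcx, of young neurons, measured 40.9 and 66.5 in ctrl against 19.1 and 29.2 in shOGT. The log2 fold changes of Tubb3, Rbfox3, Stmn2 and Syt1 were 0.45, 0.44, 0.42 and 0.09, and the median over the 6 markers was 0.35, on the same side of 0 as Rab3c. Whether neuronal cells had a part in the Rab3c difference was not tested.

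None of the other 3 Rab3 genes passed the test. Rab3b, the main Rab3 transcript here, measured 1689 and 1816 in ctrl against 1663 and 1708 in shOGT, so that the groups overlapped (log2 fold change -0.06, 95% interval -0.17 to 0.06). Rab3a, the classic Rab3 of synaptic vesicles, measured 445 and 386 in ctrl against 423 and 448 in shOGT (0.07, interval -0.13 to 0.27; -0.03 without ctrl 2). Rab3d, of exocrine granules, measured 64.8 and 57.5 against 61.7 and 66.0 (0.06, interval -0.37 to 0.49; -0.02 without ctrl 2). For all 3 the shOGT and ctrl values overlapped. Per kilobase of exon Rab3b made up 68.2% to 72.9% of the Rab3 signal in the 4 libraries, while Rab3c made up 0.592% and 0.698% in ctrl against 1.30% and 1.36% in shOGT. The gene that rose was thus a minor part of the Rab3 pool, and the summed Rab3 signal per kilobase was 699 and 707 in ctrl against 686 and 711 in shOGT. Rab3c has 12049 bases of merged exon, against 3524 for Rab3b and 2226 for Rab3a, which lowers its share per kilobase. Its signal before that scaling was also below those of Rab3a and Rab3b in every library.

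Rab26, which marks secretory granules and links synaptic vesicles to autophagy, was the best expressed member of this compartment per kilobase. It measured 1508 and 1485 in ctrl against 2117 and 1686 in shOGT. Both shOGT values were higher, but they lay far apart from each other. The log2 fold change was 0.34 ± 0.09 (limma adjusted p = 0.0649), with 0.17 without shOGT 1 and 0.50 without shOGT 2. Rab26 was called with a pseudocount of 4 (limma adjusted p = 0.0467), at a minimum value of 10 (limma adjusted p = 0.00708) and with libraries rescaled to equal totals (limma adjusted p = 0.0476). It was not called without the filter on low values, with quantile normalization or without limma's variance trend (limma adjusted p = 0.272, 0.254 and 0.463). Without ctrl 1 or ctrl 2 its log2 fold change was 0.35 and 0.33. An exon of Traf7 overlaps Rab26, and 5.95% of its 50-base stretches occur in transcripts of that gene, which measured 2675 and 2776 in ctrl against 3022 and 2915 in shOGT.

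The pair of Rab27 genes, which bring melanosomes, secretory granules and exosome-producing endosomes to the plasma membrane, was expressed at a low level. Rab27a measured 64.8 and 72.4 in ctrl against 99.9 and 89.6 in shOGT, higher in both shOGT libraries (log2 fold change 0.46 ± 0.17, limma adjusted p = 0.179). Rab27b measured 26.9 and 24.8 in ctrl against 18.1 and 24.5 in shOGT, lower in both (-0.28 ± 0.31, limma adjusted p = 0.684). Neither passed the test. Rab37, a RAB of mast cell granules, was close to absent, with 1.99 and 5.95 in ctrl, a listed 0 in shOGT 1 and 0.943 in shOGT 2.

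**Figure D3:**
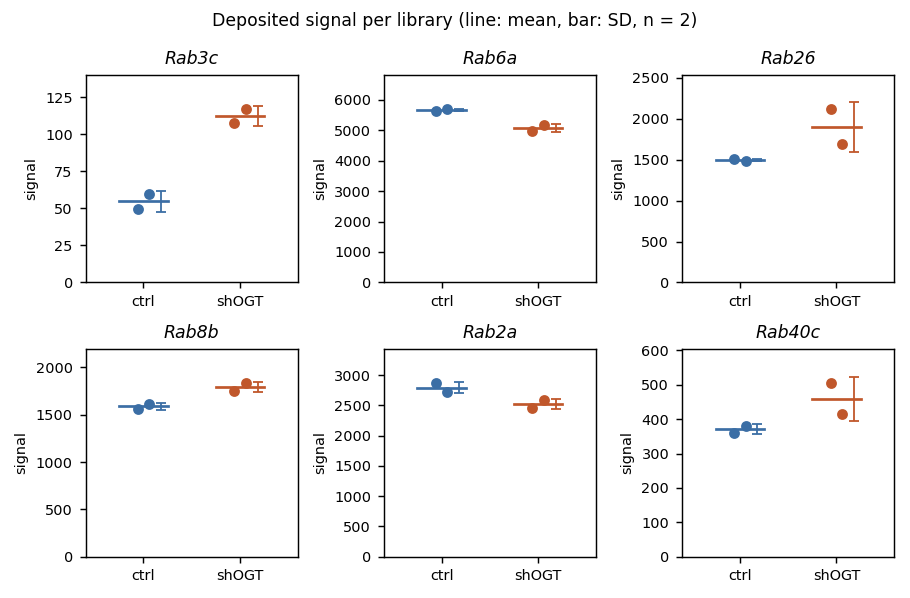
Deposited signal (y axis, from 0) of 6 RAB genes in each library (points), with the group mean (line) and SD (bar, n = 2), for ctrl and shOGT. Rab3c and Rab6a are the called genes; Rab26 and Rab40c show a wide gap between the 2 shOGT libraries, at 2117 and 1686 and at 504 and 415.

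Among the 15 members of the endoplasmic reticulum and Golgi, 1 fell and 14 did not pass. Rab6a, which directs transport within and out of the Golgi and binds motor adaptors, measured 5637 and 5687 in ctrl against 4969 and 5158 in shOGT. Both shOGT libraries were below both ctrl libraries, by more than the gap between replicates. The mean fell by 10.6%, with ctrl at 5662 ± 35.6 and shOGT at 5064 ± 134 (SD, n = 2 per group). On the log2 scale this was -0.16 ± 0.04 (SE, 95% interval -0.25 to -0.08, limma adjusted p = 0.0424). Rab6a (ENSMUSG00000030704) lies on the plus strand of chromosome 7 at 100607410 to 100641268 on GRCm38. The call was close to the threshold. Leaving out ctrl 1, ctrl 2, shOGT 1 or shOGT 2 gave -0.17, -0.15, -0.13 and -0.19, with a limma adjusted p of 0.0875, 0.129, 0.29 and 0.288. Without the filter, with quantile normalization and without the trend, its limma adjusted p was 0.149, 0.123 and 0.444. An exon of Mrpl48, on the opposite strand, overlaps Rab6a, and 19.0% of the 50-base stretches of Rab6a occur in transcripts of Mrpl48 or the pseudogene Gm13082. Mrpl48 measured 889 and 920 in ctrl against 836 and 808 in shOGT, and its part in the Rab6a value was not tested. The gene-level value also does not separate the splice forms of Rab6a.

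Rab6b, the neuronal paralog of Rab6a, lay on the other side of 0. It measured 866 and 802 in ctrl against 899 and 942 in shOGT, higher in both shOGT libraries without passing the test (0.14 ± 0.06, limma adjusted p = 0.258). Per kilobase of exon Rab6a made up 89.8% and 90.5% of the Rab6 signal in ctrl against 88.2% and 88.1% in shOGT. The difference in change between these paralogs was not tested.

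Rab2a and Rab1b, of the early secretory route, were lower in both shOGT libraries without passing the test. Rab2a, which acts between the endoplasmic reticulum and the Golgi, measured 2861 and 2727 in ctrl against 2464 and 2588 in shOGT, lower in both (-0.15 ± 0.05, limma adjusted p = 0.121). Rab1b, needed for budding towards the Golgi and for its structure, measured 3174 and 3405 in ctrl against 3038 and 2965 in shOGT, also lower in both (-0.13 ± 0.05, limma adjusted p = 0.155). Its paralog Rab1a, singled out here after its values were seen, measured 4053 and 3975 in ctrl against 4005 and 4022 in shOGT, with a 95% interval of -0.09 to 0.09 for its log2 fold change. In this compartment 5 members had an unadjusted limma p under 0.05 and were lower, and 1 was higher, where 19.3% of all tested genes had such a p in either direction. Of the lower 5, those not yet described are Rab30 of the Golgi (-0.31; 238 in both ctrl libraries, 206 and 179 in shOGT) and Rab33a, a Rab33 of neuronal vesicle traffic (-0.65; 56.8 and 49.6 in ctrl, 36.1 and 31.1 in shOGT), which were named after their values were seen. Rab18, which acts at lipid droplets and the endoplasmic reticulum, measured 2910 and 2742 in ctrl against 2735 and 3057 in shOGT (0.03, interval -0.10 to 0.16). The compartment's median log2 fold change was -0.07, with a range of -0.65 to 0.38.

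Limma called 0 of the 7 early endosome members, and 0 had an unadjusted p under 0.05. Rab31, the most abundant RAB transcript, measured 13700 and 13923 in ctrl against 13708 and 12771 in shOGT, with overlapping groups (-0.06, 95% interval -0.15 to 0.03). Rab5c measured 5056 and 5182 in ctrl against 5182 and 5249 in shOGT (0.03, interval -0.06 to 0.11). Rab5a measured 1876 and 1886 against 1905 and 2016 (0.06, interval -0.05 to 0.17), and Rab5b 1797 and 1885 against 1806 and 1859 (-0.01, interval -0.12 to 0.10; 0.01 with libraries rescaled to equal totals). The products of the 3 Rab5 genes overlap in function, and all 3 intervals included 0. Only for Rab5a were both shOGT values above both ctrl values. Rab5c made up 74.4% to 74.9% of the Rab5 signal per kilobase in every library. Rab21, which carries integrins through early endosomes, measured 2472 and 2420 in ctrl against 2273 and 2404 in shOGT, lower in both by a small margin (-0.07 ± 0.05, limma adjusted p = 0.491). Rab22a, of endosome sorting, measured 1503 and 1488 in ctrl against 1419 and 1582 in shOGT, with overlapping groups (0.003, interval -0.13 to 0.14). The compartment's median was 0.003.

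Limma called 0 of the 13 members of recycling and delivery to the plasma membrane, with 3 at an unadjusted p under 0.05. The closest was Rab8b, which with Rab8a carries vesicles to the cell surface and the cilium, at 1564 and 1612 in ctrl against 1750.0 and 1829 in shOGT. Both shOGT values were higher, and the log2 fold change was 0.17 ± 0.05 (limma adjusted p = 0.0844, and 0.0358 at a minimum value of 10). Rab8a measured 1074 and 1063 in ctrl against 1128 and 1165 in shOGT, likewise higher in both (0.10 ± 0.05, limma adjusted p = 0.343). Summed per kilobase, the Rab8 pair reached 560.0 and 568 in ctrl against 611 and 636 in shOGT.

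The Rab11 pair, which marks the recycling endosome, pointed in opposite directions. Rab11b measured 1355 and 1353 in ctrl against 1525 and 1452 in shOGT, higher in both (0.14 ± 0.05, limma adjusted p = 0.182), and 13.6% of its 50-base stretches occur in other genes, mainly the pseudogene Rab11b-ps2. Rab11a, the more abundant of them per kilobase, measured 1629 and 1716 in ctrl against 1558 and 1613 in shOGT, lower in both (-0.08 ± 0.05, limma adjusted p = 0.461). Their sum per kilobase was 765 and 794 in ctrl against 769 and 776 in shOGT, so that the pool as a whole overlapped between groups. Rab10, which delivers glucose transporters and membrane for growing axons, measured 6301 and 6337 in ctrl against 5919 and 6038 in shOGT (-0.08 ± 0.04, limma adjusted p = 0.252). Rab35, of fast recycling, measured 1669 and 1674 in ctrl against 1576 and 1634 in shOGT (-0.06 ± 0.05, limma adjusted p = 0.557). Both were lower in both shOGT libraries by small margins. Of the members not chosen by the rule for named genes, Rab14, of Golgi to endosome transport, differed by 0.03 (interval -0.06 to 0.11) and Rab13, of tight junction traffic, by -0.03 (interval -0.22 to 0.15). Rab4a, of fast recycling, differed by -0.09 (interval -0.38 to 0.20). The compartment's median was -0.06.

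In the late endosome, lysosome and related organelles 0 of 9 members were called by limma, and 0 had an unadjusted p under 0.05. Rab7, which drives the maturation of late endosomes and their fusion with lysosomes, measured 4994 and 5129 in ctrl against 4864 and 5339 in shOGT (0.01, 95% interval -0.10 to 0.12; -0.06 without shOGT 2). Rab9, of transport from late endosomes back to the Golgi, measured 1254 and 1269 in ctrl against 1144 and 1278 in shOGT (-0.06, interval -0.20 to 0.08; 0.02 without shOGT 1). For both genes the shOGT pair spanned the ctrl pair. Rab38, which sorts enzymes to melanosomes, measured 66.8 and 63.5 in ctrl against 77.6 and 81.1 in shOGT, higher in both (0.28 ± 0.18, limma adjusted p = 0.432). Rab7b, of endosome to Golgi transport, measured 21.9 and 21.8 in ctrl against 30.8 and 26.4 in shOGT, also higher in both (0.37 ± 0.29, limma adjusted p = 0.55). For both the 95% interval included 0. The abundant Rab12, which links endosomes to lysosomal degradation, differed by -0.01 (interval -0.14 to 0.12). Rab29, a partner of the kinase LRRK2, differed by -0.12 (interval -0.45 to 0.21), and Rab32, of lysosome-related organelles, by 0.05 (interval -0.31 to 0.41).

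The remaining members were those of the primary cilium and the less studied RABs, and limma called 0 of the 6 tested, with 1, Rab40c, at an unadjusted p under 0.05. Rab23, which restrains Hedgehog signalling at the cilium, measured 718 and 797 in ctrl against 780 and 776 in shOGT (0.04, 95% interval -0.11 to 0.19; -0.03 without ctrl 1). Rab28 measured 1070.1 and 1117 in ctrl against 949 and 1077 in shOGT (-0.11, interval -0.27 to 0.04). The groups overlapped for both cilium genes. Rab40c, an adaptor of a ubiquitin ligase, measured 360.0 and 381 in ctrl against 504 and 415 in shOGT, higher in both (0.30 ± 0.10, limma adjusted p = 0.133; 0.16 without shOGT 1). Its paralog Rab40b measured 70.8 and 60.5 in ctrl against 56.3 and 43.4 in shOGT, lower in both (-0.40 ± 0.22, limma adjusted p = 0.368). Rab42 measured 4.99 and 7.94 in ctrl against 11.7 and 13.2 in shOGT (0.88 ± 0.45, limma adjusted p = 0.329). Rab19, the member that was not tested, was listed at 0 in both ctrl libraries and at 1.06 and 0.943 in shOGT.

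Every other tested member lay between the -0.51 of Rab17 and the 0.38 of Rab39 on the log2 scale, and none passed the test. Besides Rab37, Rab19 and Rab42, those below a mean of 10 were Rab9b, Rab17, Rab20 and Rab25, for which no difference was detectable at this depth. Of the 59 members, 35 had under 1% of their 50-base stretches in other genes, 14 had 1% to 10%, and 10 had at least 10%. Among the last were Rab43, Rab4b, Rab2b and Rab24 at 74.5%, 58.1%, 57.0% and 49.6%, whose values are uncertain for that reason. The exons of Rab24 overlap those of Prelid1, which lies on the opposite strand. Prelid1 measured 2805 and 2743 in ctrl against 2172 and 1873 in shOGT (limma adjusted p = 0.00598), while Rab24 measured 169 and 159 in ctrl against 156 and 156 in shOGT.

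Of the genes that run the RAB cycle, 163 were listed and 159 tested, and 5 rose and 9 fell. This is 8.81%, beside 3.45% of the RABs and 4.86% of all genes, and the difference between these shares was not tested. Of the 136 with a mean of at least 100, 12 were called, or 8.82%, close to the 9.21% of all genes of that level. The median log2 fold change over the 159 was 0.002. In the machinery that attaches the lipid and recycles RABs, which includes geranylgeranyl transferase (Rabggta, Rabggtb), the escort proteins (Chm, Chml) and GDP dissociation inhibition (Gdi2), limma called 0 of 12 genes, with 3 at an unadjusted p under 0.05 and a median of -0.01.

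Among exchange factors 1 of 54 rose and 2 fell. Rab3gap2, the noncatalytic subunit of a complex that ends Rab3 activity and also activates Rab18, measured 1292 and 1223 in ctrl against 1473 and 1524 in shOGT (0.25 ± 0.05, limma adjusted p = 0.0297). Trappc2l, a subunit of the TRAPP complexes that activate Rab1, measured 353 and 368 in ctrl against 249 and 277 in shOGT (-0.46 ± 0.09, limma adjusted p = 0.0264). Dennd5b, a DENN-domain exchange factor, measured 542 and 601 in ctrl against 458 and 434 in shOGT (-0.36 ± 0.08, limma adjusted p = 0.0363). In each of these 3 genes the groups did not overlap, as was so for 49.3% of all genes tested.

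Among the genes listed as GTPase-activating proteins 2 of 39 rose and 4 fell. Whether each listed gene, such as Tbc1d32, has this activity was not examined. Tbc1d2, which acts on Rab7, measured 10.97 and 15.87 in ctrl against 39.3 and 38.6 in shOGT (1.49 ± 0.32, limma adjusted p = 0.0313). Tbc1d1, which governs glucose transporter traffic, measured 1477 and 1567 in ctrl against 1794 and 1801 in shOGT (0.24 ± 0.05, limma adjusted p = 0.0288). The 4 that fell did so by similar amounts. They were Rabgap1l (-0.31), Tbc1d16, which acts on Rab4 (-0.29), Tbc1d32, needed for cilia (-0.38), and Usp6nl, which acts on Rab5 (-0.29).

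Among effectors 2 of 54 rose and 3 fell. Rph3a, which encodes rabphilin, an effector of Rab3 proteins on synaptic vesicles, measured 20.9 and 30.8 in ctrl against 91.4 and 54.7 in shOGT (1.44 ± 0.31, limma adjusted p = 0.0304; 1.08 without shOGT 1 and 1.81 without shOGT 2). Lrrk1, a kinase that modifies Rab7, rose as well (0.55 ± 0.12, limma adjusted p = 0.0371). Micall1, an effector on tubular recycling endosomes, measured 367 and 379 in ctrl against 260 and 270 in shOGT (-0.49 ± 0.09, limma adjusted p = 0.0139). Optn, optineurin, an effector of Rab8 and an autophagy receptor (-0.62), and Rab11fip3, a Rab11 effector of cytokinesis and the cilium (-0.26), fell too. Without ctrl 1 or ctrl 2, 11 and 9 of these 14 cycle genes were still called, and without shOGT 1 or shOGT 2 none was. Nor was any without the filter, with quantile normalization or without the variance trend. With a pseudocount of 0.5, 13 of the 14 were called, and Usp6nl was not.

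**Figure D4:**
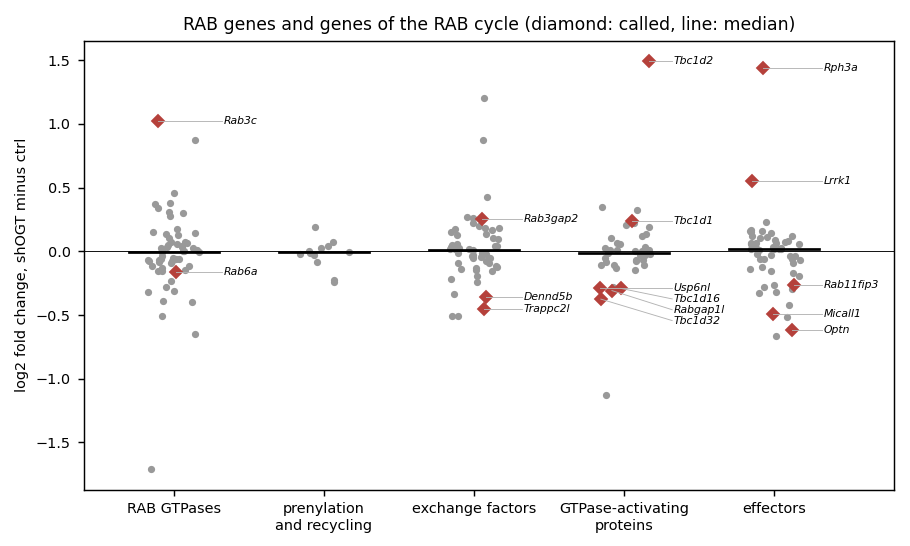
Log2 fold change (y axis, shOGT minus ctrl, log2(value + 1) scale) of each tested RAB gene and of each tested gene in 4 lists of the RAB cycle (x axis, points spread sideways for legibility); red diamonds are called genes, black lines are list medians. The medians lie between -0.01 and 0.02, and the called genes with the largest rises are Tbc1d2 at 1.49, Rph3a at 1.44 and Rab3c at 1.03.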

How the data were processed

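The authors' deposited files give 1 signal value per Ensembl gene and library, a coverage-like unit normalized by the authors. Not given in the sources used here were their normalization, aligner, counting tool, annotation and use of strand. The build is mm10, per the submitters' processing notes. Within 0.01 of a step, all signal values as deposited fell on whole multiples of a step particular to each library (0.997, 0.992, 1.06 and 0.943 for ctrl 1, ctrl 2, shOGT 1 and shOGT 2), and implied reads are the signal divided by that step, taking a step as 1 read. GENCODE M21 (GRCm38, the assembly that mm10 names) gave symbols, positions and exon lengths and matched 25250 identifiers and missed 11.

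The test was limma 3.58.1 (R 4.3.3), with a variance trend, on log2(value + 1), for genes that reached 1 in 2 or more libraries, with Benjamini-Hochberg adjustment over all of them. A minimum of 1 lies just above 1 step in 3 libraries and just below it in shOGT 1. Fold changes are on the log2(value + 1) scale, which understates changes of low genes. The labels do not say whether replicates were separate cultures, so p-values cover the spread of these samples only, and that spread may be technical. The fit was first tested on simulated data, with changes put only into genes with a mean of at least 100. It recovered 42% of those changed by 0.3 on the log2 scale, 78% at 0.5 and 100% at 1 and at 2. All genes were given 1 common spread beyond counting, which was set in advance and not estimated from the replicates. Recovery for low or more variable genes was thus not tested, and recovery in the real data may be lower.

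The members, compartments (from general knowledge; several RABs serve more than 1), lists and tests were chosen with earlier results of these data known. Values per library are given for called RAB genes, for the 2 of each compartment with the smallest p and the 2 with the highest level per kilobase, and for the Rab3, Rab5, Rab6, Rab8, Rab11 and Rab27 sets. Called genes of the cycle lists are named, up to 6 in each direction; the few others given were chosen after their values were seen. Alternatives changed the pseudocount, the filter, the scaling, the variance trend, a replicate block and the libraries used.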

Additional observations from a re-analysis of the deposited data

How the results depend on the processing

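Over all genes limma called 1955 genes at a minimum value of 10, 2302 with the replicate block and 2572 with both, against 1060 as reported. It called 0 without a filter, 0 with quantile normalization and 0 without the variance trend, where 4302, 3998 and 2763 genes had an unadjusted p under 0.05. Leaving out 1 library gave 0 to 1220 calls, with 0 in limma without shOGT 1 or shOGT 2 (3229 and 3186 at an unadjusted p under 0.05).

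RAB genes called higher numbered 2 with a pseudocount of 4, 2 with libraries rescaled to equal totals, 3 at a minimum of 10, 4 with the replicate block (Rab3c, Rab26, Rab8b and Rab40c) and 4 with block and minimum, and 0 without a filter, with quantile normalization or without the trend (limma). Leaving out 1 library gave 0 to 2. RAB genes called lower numbered 2 with the replicate block (Rab6a and Rab2a), 3 with block and minimum (Rab1b added), and 0 without a filter, with rescaled totals, with quantile normalization or without the trend; leaving out any 1 library gave 0. In limma without a filter, with quantile normalization and without the trend, 12, 12 and 6 RAB genes had an unadjusted p under 0.05. The RAB median ran from -0.0547 (without shOGT 2) to 0.0197 (without shOGT 1) when 1 library was left out.

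Among the 46 named genes whose values were recomputed, small changes turned sign in 9 cases, none of a called gene; the other RAB members, several of them near 0, were not followed. They were Rab5b at 0.0106 with rescaled totals, and 8 cases with 1 library left out. Over those fits Rab5b ran from -0.0406 to 0.0281 (above 0 without ctrl 2 or shOGT 1), Rab7 from -0.0574 to 0.0771 (below 0 without ctrl 1 or shOGT 2), Rab23 from -0.0338 (without ctrl 1) to 0.1157, Rab3a from -0.0311 (without ctrl 2) to 0.1734, Rab3d from -0.0228 (without ctrl 2) to 0.1465, and Rab9 from -0.1405 to 0.0194 (without shOGT 1). The cause of these differences was not tested.

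Replicate numbers were not shown to pair the libraries: the deviations of ctrl 1 and shOGT 1 from their group means had a correlation of 0.01 across 14427 genes, which are not independent replicates. With the block the limma adjusted p was 1.604e-07 for Rab26, 0.0128 for Rab40c, 0.0247 for Rab8b and 0.0372 for Rab2a. The block leaves little information on the spread of each single gene, so these p-values lean on the spread of other genes. For Rab26, at 2117 and 1686 in shOGT, so small a p does not reflect the gene's own spread. The block with a minimum of 10 and the scaling by the median of ratios were chosen after seeing the data, and that scaling left the counts of calls as reported. The planned count tests and their scaling factors were not run: the values fall on whole multiples of a step, but with a step near 1 in both ctrl libraries whole reads could not be established as recovered. Depth limits the members below a mean of 10, whose median standard error was 0.63.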
